A study of Mus musculus with 16 samples.

Results

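Some liver transcripts carried N6-methyladenosine (m6A) at many separate places. Peaks of 8 deposited lists, 1 per mouse, were merged into a region wherever they shared at least 1 base within the same gene and chromosome, and the genes with 5 or more regions are described here. They numbered 680 of the 8284 genes with a peak, or 8.21%, and held 4432 of 17936 regions and 6991 of 28297 peaks, 24.7% of both. The number of regions chose the genes, so that number is given as a description and supports no test.

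Methylated RNA immunoprecipitation sequencing was run on liver of male mice, 4 labelled db, of the strain given as db/db, and 4 lean C57BL/6 mice. The label db/db names the mutation of the leptin receptor gene, which makes mice obese and diabetic, and no background strain, so that strain and mutation cannot be told apart. Total RNA was fragmented and precipitated with an antibody against m6A, and every mouse also had an input library that was not analysed here. The age of the mice is not in the labels.

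The m6A mark is written on adenosines of nascent RNA by a complex around Mettl3 and Mettl14, within short motifs centred on an adenosine followed by a cytosine. It is removed by Fto and Alkbh5 and read by proteins with a YTH domain, which act on splicing, translation and decay. In mammalian transcripts it is known to gather in long exons and around stop codons. An antibody peak marks a fragment of RNA and not a single base, and a missing peak can also come with a low level of the transcript or few reads.

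Several of the most reproducible regions lay over microRNA genes, and their mature sequences are shown because they name what the antibody fragments could hold. All 5 regions of Rtl1, an imprinted gene derived from a retrotransposon and known to be overlapped on the opposite strand by a cluster of microRNAs, covered hairpins of that cluster on chromosome 12 (mm10). The library kit in the labels does not mark strand, so that Rtl1 and the transcripts opposite to it cannot be told apart. A further 3 regions, of the predicted gene 2010111I01Rik on chromosome 13, covered Mir23b, Mir27b and the pair Mir24-1 and Mir3074-1. The mature microRNAs below are from RefSeq (GRCm38.p6), with bases 2 to 8, the seed, in capitals, and no seed occurs more than once among them.
mmu-miR-431-5p: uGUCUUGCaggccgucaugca
mmu-miR-433-3p: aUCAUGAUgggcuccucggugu
mmu-miR-127-3p: uCGGAUCCgucugagcuuggcu
mmu-miR-434-3p: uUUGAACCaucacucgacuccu
mmu-miR-136-5p: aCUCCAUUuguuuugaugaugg
mmu-miR-23b-5p: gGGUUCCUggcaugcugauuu
mmu-miR-27b-3p: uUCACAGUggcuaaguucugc
mmu-miR-24-3p: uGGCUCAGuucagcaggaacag

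The regions over Rtl1 varied in how many mice held them. That over Mir127 (chr12:109592822-109592930) had a peak in 8 mice, with folds over background, the authors' own value, of 9349, 1110, 797 and 8468 in db mice 1 to 4, against 283, 718, 527 and 428 in lean mice 1 to 4. The Mir434 region (chr12:109594507-109594606) also had a peak in 8 mice, with folds of 2279, 197, 80.3 and 1239 in db mice and 55.6, 95.6, 267 and 41.8 in lean mice. A fold is taken over the background of the same list, so it ranks peaks within a mouse and does not compare mice. The Mir136 region had a peak in 4 db and 3 lean mice, the Mir433 region in 3 of each, and the Mir431 region in 2 db mice and no lean mouse. In numbers of regions, Rtl1 had 5, 4, 3 and 5 in db mice and 3, 4, 4 and 3 in lean mice, and the genotypes overlapped.

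The microRNA regions of 2010111I01Rik each had a peak in all 8 mice, with median folds of 136 over Mir23b, 1191 over Mir27b and 510 over Mir24-1. Single regions of Chpf2, which encodes an enzyme of chondroitin polymerisation, of Scd2, a stearoyl-CoA desaturase, and of Cyp2d11, a cytochrome P450, covered Mir671, Mir5114 and Mir7684 in 8, 6 and 4 mice. Across the 680 genes, 11 of the 4432 regions covered a microRNA gene, and 1 more covered a small nucleolar RNA gene. 2010111I01Rik, Chpf2 and Scd2 were chosen after their values were seen.

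Other regions reached an annotated start of their gene, and a gene can have more than 1 such start. The Tnrc18 region lay 6.13% along the annotated bounds of its gene, so its start was not the outermost one. The windows below run from 250 bases before to 50 bases after that start, 5′ to 3′ on the strand of the gene (RefSeq, GRCm38.p6), with the bases inside the m6A region in capitals. Tnrc18 and Cyp4a32 are shown because the region had a peak in every db mouse and in no lean mouse. Mup6, Mup4 and Cyp2a4 are shown as regions of liver-secreted or detoxifying proteins with a peak in 8, 7 and 7 mice, and Amotl2, Pcf11 and Ulk1 had start regions in as many mice and are not printed. Cyp2a4, Amotl2, Pcf11 and Ulk1 were chosen after their values were seen.
Tnrc18: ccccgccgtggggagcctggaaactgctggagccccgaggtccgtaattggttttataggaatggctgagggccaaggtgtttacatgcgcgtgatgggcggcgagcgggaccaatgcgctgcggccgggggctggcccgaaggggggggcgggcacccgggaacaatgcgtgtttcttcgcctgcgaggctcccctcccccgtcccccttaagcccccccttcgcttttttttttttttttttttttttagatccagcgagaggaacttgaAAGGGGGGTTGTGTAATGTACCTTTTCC
Cyp4a32: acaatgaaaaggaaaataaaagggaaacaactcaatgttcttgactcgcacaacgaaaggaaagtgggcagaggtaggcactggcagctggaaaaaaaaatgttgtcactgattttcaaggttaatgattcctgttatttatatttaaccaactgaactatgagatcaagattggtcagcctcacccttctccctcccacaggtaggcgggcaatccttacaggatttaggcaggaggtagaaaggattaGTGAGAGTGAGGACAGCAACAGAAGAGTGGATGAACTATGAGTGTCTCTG
Mup6: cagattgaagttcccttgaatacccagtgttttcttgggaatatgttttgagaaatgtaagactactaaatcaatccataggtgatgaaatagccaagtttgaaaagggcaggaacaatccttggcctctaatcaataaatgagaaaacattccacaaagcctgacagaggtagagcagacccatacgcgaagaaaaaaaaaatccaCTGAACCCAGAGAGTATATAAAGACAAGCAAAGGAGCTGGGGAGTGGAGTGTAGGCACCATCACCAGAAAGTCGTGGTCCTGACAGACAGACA
Mup4: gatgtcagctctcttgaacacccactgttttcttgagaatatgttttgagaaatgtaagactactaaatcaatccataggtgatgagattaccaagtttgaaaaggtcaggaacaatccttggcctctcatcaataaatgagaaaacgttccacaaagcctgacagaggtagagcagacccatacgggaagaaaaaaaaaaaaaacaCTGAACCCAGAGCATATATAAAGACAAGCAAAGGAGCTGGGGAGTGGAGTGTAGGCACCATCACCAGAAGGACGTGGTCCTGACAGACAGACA
Cyp2a4: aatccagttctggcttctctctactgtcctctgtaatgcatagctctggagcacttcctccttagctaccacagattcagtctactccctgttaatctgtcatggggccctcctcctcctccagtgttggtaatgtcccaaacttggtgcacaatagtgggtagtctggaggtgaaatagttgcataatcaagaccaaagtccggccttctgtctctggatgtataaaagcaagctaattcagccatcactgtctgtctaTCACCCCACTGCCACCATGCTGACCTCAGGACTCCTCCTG

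The windows lie at chr5:142817613-142817912 for Tnrc18 (minus strand), chr4:115600688-115600987 for Cyp4a32, chr4:60003231-60003530 for Mup6, chr4:59960618-59960917 for Mup4 (minus strand) and chr7:26306942-26307241 for Cyp2a4. In Cyp4a32 the capitals begin at the annotated start base itself, in Mup6 and Mup4 they begin 43 bases before it. The stretches in capitals of Mup4 and Mup6, which encode major urinary proteins secreted by the liver, are identical at 89 of 93 bases, so that reads of one copy could be placed in the other. The 5-base motif GGACT, a common form of the m6A motif, was searched on both strands and lay within the capitals of Cyp2a4 alone among these 5 windows, at base 289. None of Amotl2, Pcf11 and Ulk1 held it within the region on the strand of the gene. Of all 32851 start windows of 300 bases, 26.1% hold it on the strand of the gene and 45.5% on either strand. The stretches in capitals are shorter than a window, so these shares are no background for them.

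Of 4432 regions, 166 in 160 genes touched such a start window, and 51 of them had an edge exactly on an annotated start base. Counted over genes with a window, start regions were 5.09% of the regions here and 13.7% of those in genes with fewer regions. A peak in at least 2 mice was found for 44.0% of the start regions and for 22.8% of the other 3096 regions of genes with a window. Per mouse, the share of peaks of these genes that lay at a start was 5.79% ± 1.97 in db and 7.11% ± 1.54 in lean mice (SD with n = 4 per genotype, p = 0.371 by exact permutation, two-sided). The genotypes therefore differed by less than the spread between mice.

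**Figure D1:**
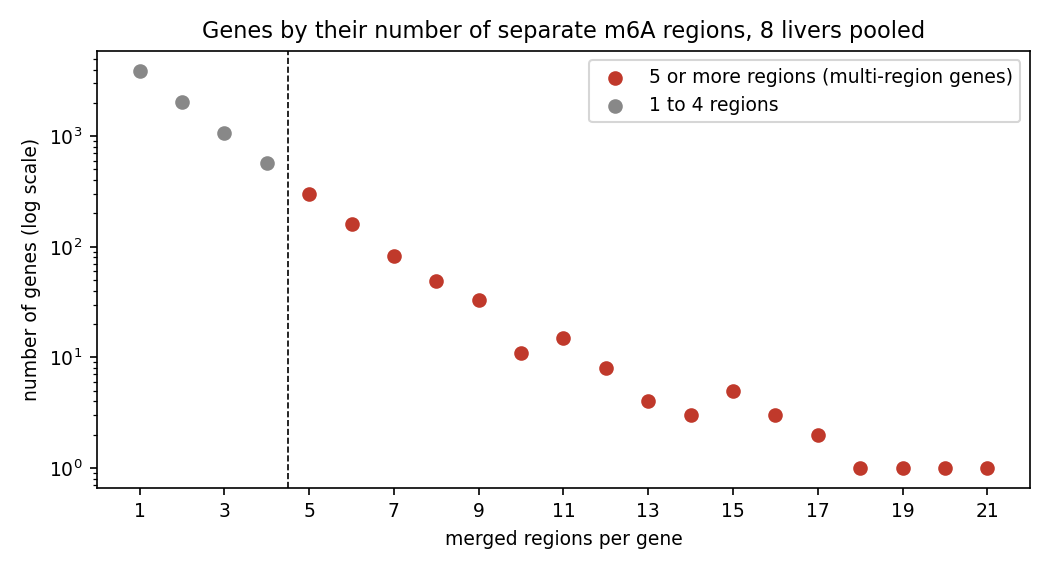
Number of genes (vertical axis, log scale) by the number of merged m6A regions per gene (horizontal axis), with genes of 5 or more regions set off by colour. The count declines from 3913 genes with 1 region to 298 with 5 and 1 gene, Tnrc18, with 21.

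The threshold did not fall at a break in the data. Just inside it, 298 genes had 5 regions, of which 21.7% had a peak in at least 2 mice, and just outside it, 575 genes had 4 regions, of which 22.4% did. Many genes passed by adding up mice: 110 of the 680 had 5 or more peaks in the list of a single mouse, while 37.6% had no more than 2 in any list, and 28 genes no more than 1. From db lists alone 284 genes reached 5 regions and from lean lists alone 137, and 72 genes did in both, 25.4% of the db set and 52.6% of the lean set. A peak in all 8 mice, at whichever region, was found for 88 genes (12.9%). Without db mouse 1, whose list was the longest, 457 genes had 5 or more regions, 451 of them among the 680.

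Regulators of chromatin and large structural proteins were the most frequent among the named groups. The groups are lists chosen with earlier results of these data known, and each share is taken over the members with a peak in any mouse. Of 83 chromatin regulators with a peak, 37 (44.6%) had 5 or more regions, against 8.21% of all genes, and the median was 4 regions per gene against 2 over all genes. For large cytoskeletal and scaffold proteins it was 18 of 45 (40.0%), for extracellular matrix and adhesion 15 of 49 (30.6%), for ubiquitin ligases and deubiquitylating enzymes 8 of 29 (27.6%), and for genes of lipid, glucose and insulin signalling 12 of 47 (25.5%). Transcription factors and coactivators had 17 of 70 (24.3%), RNA processing and small RNA factors 8 of 49 (16.3%) and secretory and detoxifying families of the liver 14 of 97 (14.4%), a symbol pattern that also took in Fgd4, a regulator of Cdc42. Membrane transporters had 7 of 163 (4.29%), and zinc finger proteins by symbol 15 of 259 (5.79%). Genes with more regions also had longer annotated bounds, with a median of 51.6 kb over 671 genes against 25.2 kb over 7399 genes with fewer regions, and the part of length in these shares was not tested.

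Among chromatin regulators, Tnrc18, known as a reader of a repressive histone mark, led all genes with 21 regions on chromosome 5. It had 7, 7, 9 and 6 regions in db mice 1 to 4, against 5, 4, 6 and 4 in lean mice 1 to 4. The db values were the higher ones, apart from the value of 6 that the lowest db and the highest lean mouse share (exact permutation p = 0.0571, two-sided, the adjusted p over all genes being 1). One of its regions, of 452 bases at chr5:142771520-142771971, had a peak in all 8 mice, with a median fold of 15.2. Kmt2d, a histone H3 lysine 4 methyltransferase, had 15 regions, Ahdc1, a DNA-binding protein, 14, and Tet3, which oxidises methylcytosine, 13. Kmt2d had 6, 2, 4 and 2 regions in db mice and 2, 3, 2 and 0 in lean mice, and the genotypes overlapped. Bptf, a subunit of a nucleosome remodeller, had 11 regions, which stood at 4, 2, 4 and 3 in db mice and 4, 3, 3 and 4 in lean mice. The related methyltransferases Kmt2b, Kmt2a and Kmt2c had 8, 5 and 5 regions and were chosen after their values were seen.

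Spen, a large RNA-binding corepressor needed for the silencing of the X chromosome, had 19 regions on chromosome 4. It had 6, 5, 8 and 5 regions in db mice and 5, 8, 4 and 9 in lean mice, with no order between the genotypes. Regions at chr4:141468415-141468660, chr4:141472858-141473119 and chr4:141478726-141479389 each had a peak in all 8 mice, all within the last 20% of the gene, and the longest of them covered 664 bases. The folds of the middle one were 18.6, 35.5, 28.8 and 24.7 in db mice, against 9.59, 23.2, 34.3 and 28.5 in lean mice.

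Cytoskeletal genes with many regions included Plec, whose product plectin links filament systems, with 20, Syne1, a nesprin of the nuclear envelope, with 18, Myh14, a nonmuscle myosin heavy chain, with 17, and Cgn, the tight junction protein cingulin, with 16. The centrosomal scaffolds Cep250 and Pcnt, the monooxygenase Mical3 and Neb, the giant nebulin of muscle, had 15 each. Syne1 showed how a single mouse can add to a total: it had 4, 3, 4 and 2 regions in db mice and 2, 3, 3 and 10 in lean mice, and lean mouse 4 stood highest. Neb had 6, 4, 2 and 4 regions in db mice and 0, 0, 3 and 0 in lean mice. Lean mouse 3 lay within the range of the db mice. Myh9, another nonmuscle myosin heavy chain, had 8 regions, of which the pair at chr15:77766714-77766875 and chr15:77771125-77771269 had a peak in all 8 mice.

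Of the matrix and adhesion genes, Tnxb, a tenascin, had 13 regions, Dchs1, a protocadherin of planar polarity, and Plxnd1, a semaphorin receptor, 12 each, and Hspg2, the basement membrane protein perlecan, 11. Among ubiquitin ligases, Herc2 had 12 regions, Ubr4 11 and Mycbp2 9. In signalling and lipid uptake, Lrp5, a Wnt coreceptor, had 11 regions, Lrp1, a lipoprotein and scavenger receptor, 7, and Igf2r and Mtor 6 each. Lrp1 owed its place to db mouse 1, with 7, 0, 0 and 0 regions in db mice and 0, 1, 0 and 1 in lean mice. Dhx38, an RNA helicase of splicing, had 14 regions, 4, 4, 5 and 5 in db mice and 5, 5, 0 and 2 in lean mice. Dicer1, the enzyme that cuts microRNA precursors, had 6, and the microRNA effectors Tnrc6c and Tnrc6a 8 and 7. The m6A machinery itself had 17 genes with a peak, of which Zc3h13, a subunit of the writer complex, was the only one with 5 or more regions. Zc3h13 had 5, 2, 4 and 3 regions in db mice and 1, 3, 1 and 1 in lean mice, and lean mouse 2 lay within the db range. Among clock genes Arntl alone reached 5 regions, of 11 with a peak, and among 3 long noncoding RNAs Kcnq1ot1 did. In Notch and Wnt signalling 3 of 16 genes did, which were Notch2, the poly-ADP-ribosylating Tnks and the ligand Dll4.

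**Figure D2:**
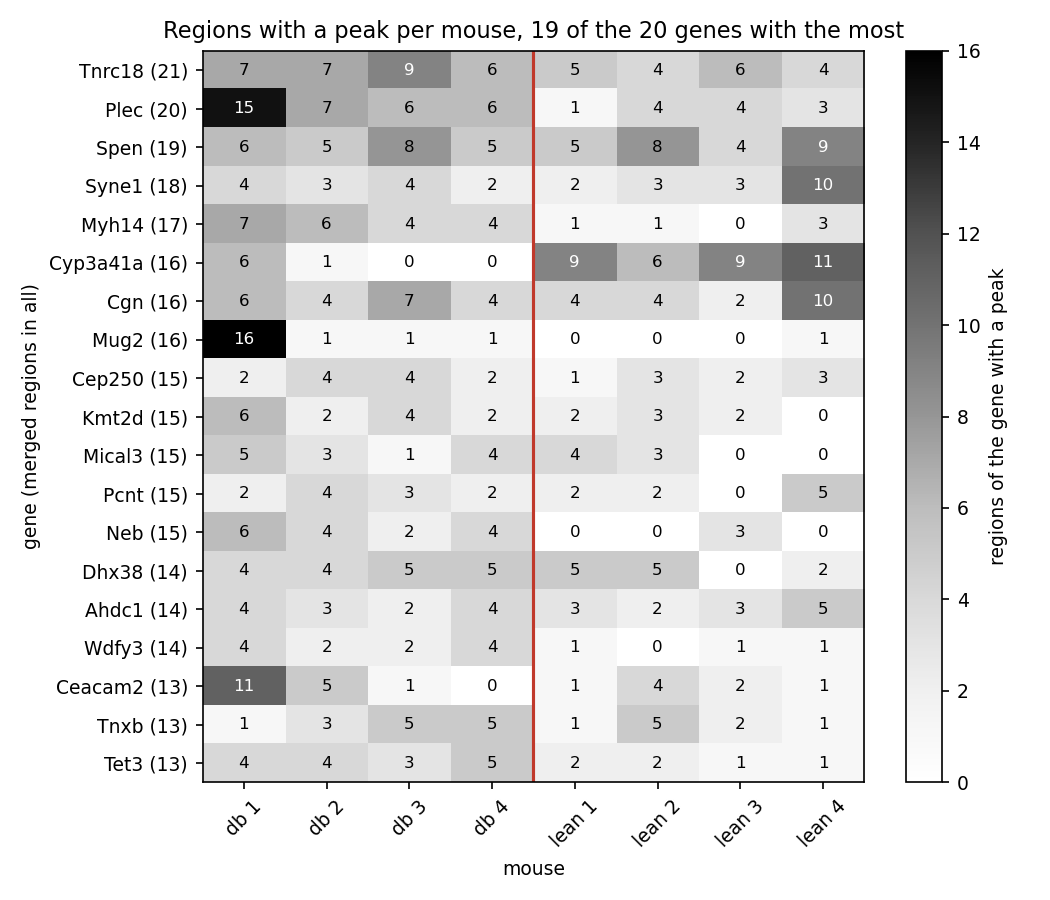
Number of m6A regions with a peak per mouse (shade and printed value) for 19 of the 20 genes with the most regions (rows, ordered by that number), with db mice 1 to 4 left of lean mice 1 to 4. Tnrc18 and Spen were filled in every mouse, Mug2 had 16 regions in db mouse 1 and at most 1 in any other mouse, and Myh14 had 4 to 7 in db mice and 0 to 3 in lean mice.

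In several genes of secreted or detoxifying liver proteins, and in Rrbp1, some of the regions were shared by most mice. Mup6 had 6 regions, 5, 4, 4 and 4 in db mice and 6, 5, 6 and 5 in lean mice, and 4 of them had a peak in all 8 mice, more than for any other of the 680 genes. Their median folds along the gene were 17.5, 1420, 55.3 and 15.1. The start region had folds of 12.0, 11.2, 8.23 and 7.95 in db mice and 30.1, 33.4, 39.0 and 23.0 in lean mice. Mup4 had 5, 2, 3 and 2 regions in db mice and all 5 in each of 4 lean mice, and db mouse 1 equalled the lean mice. Serpina3c, a serine protease inhibitor, had 7 regions, 6, 5, 3 and 2 in db mice and 4, 5, 5 and 5 in lean mice, with 2 regions in all 8 mice. Rrbp1, a ribosome-binding protein of the endoplasmic reticulum, had 4 regions in each db mouse and 1, 4, 4 and 4 in lean mice. C4a, a complement component, had 9 regions, 6 of them in at least 2 mice. A lower transcript level and less methylation cannot be told apart in a peak list.

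Other members of these families rested on few mice or on copies. Cyp3a41a, a cytochrome P450, had 16 regions, 6, 1, 0 and 0 in db mice and 9, 6, 9 and 11 in lean mice, and db mouse 1 equalled the lowest lean mouse (exact permutation p = 0.0571, adjusted p = 1). Of these regions 9 fell beyond the annotated ends of Cyp3a41a, in a separate stretch, so that the 16 need not belong to 1 copy. Mug2, a murinoglobulin that inhibits proteases, had 16 regions in db mouse 1, 1 in each other db mouse and 0, 0, 0 and 1 in lean mice. Cyp2d11 had 9, 0, 2 and 1 regions in db mice and 2, 3, 4 and 6 in lean mice, and Cyp2a22 had 1, 0, 0 and 0 in db mice and 0, 8, 4 and 1 in lean mice. Ceacam2, a cell adhesion molecule, had 13 regions, 11, 5, 1 and 0 in db mice and 1, 4, 2 and 1 in lean mice.

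Genes with a neighbour of the same symbol stem within 1 Mb, for which reads may be shared between copies, numbered 65 of the 680 (9.56%). Their 430 regions had a peak in at least 2 mice in 40.5% of cases, and the 4002 regions of the other 615 genes in 22.6%. The regions of a gene with such a neighbour spread over a median of 15.05 kb, against 36.9 kb for the others. Values of the Mup, Cyp, Ceacam2, C4a and C1s2 genes are uncertain to the extent that copies share reads. A further 360 regions (8.12%) lay inside the bounds of another annotated gene as well.

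Markers of liver cell types were checked because a bulk liver holds several. Of 20 hepatocyte markers 4 had a peak and none had 5 regions, and of 12 markers of Kupffer cells and macrophages 8 had a peak and again none had 5 regions. Of 14 sinusoidal endothelial markers all had a peak, and Flt4, Flt1, Kdr, Tek and Oit3 had 5 or more regions. Among stellate cell markers only Pdgfrb did, of 11 with a peak, and among cholangiocyte markers only Sox9, of 3. A peak list gives no expression level, so these counts do not measure the cell types, and fewer cells of a type and less RNA per cell cannot be told apart.

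Most regions were seen once. Of the 4432 regions, 3354 (75.7%) had a peak in 1 mouse only, 142 (3.20%) in 6 or more and 45 (1.02%) in all 8. In genes with fewer regions, 76.9% of 13504 regions had a peak in 1 mouse only and 1.30% in all 8. The 45 regions lay in 35 genes, and 6 genes had at least 2 of them, which were Mup6, Spen, 2010111I01Rik, Rtl1, Serpina3c and Myh9. At the other end, 176 of the 680 genes had no region with a peak in more than 1 mouse. Among the regions seen in 1 mouse only, db mouse 1 held 811, which was 59.9% of its own regions, and lean mouse 3 held 209, or 34.9% of its own.

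Positions along the gene were read for regions of genes with a known strand. Of the 32 regions of all 8 mice with such a position, 18 lay in the last 20% of the gene, a share of 56.3%, against 42.5% of all 3211 such regions. Of these 3211, 27.9% lay in the last 10% of the gene and 13.7% in the first 10%, and in genes with fewer regions the shares were 26.2% and 23.4% of 10312. The median fold was 25.6 for the regions of all 8 mice and 10.3 for those of 1 mouse. Annotation without exons was used, so that introns, coding sequence and untranslated parts were not separated.

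**Figure D3:**
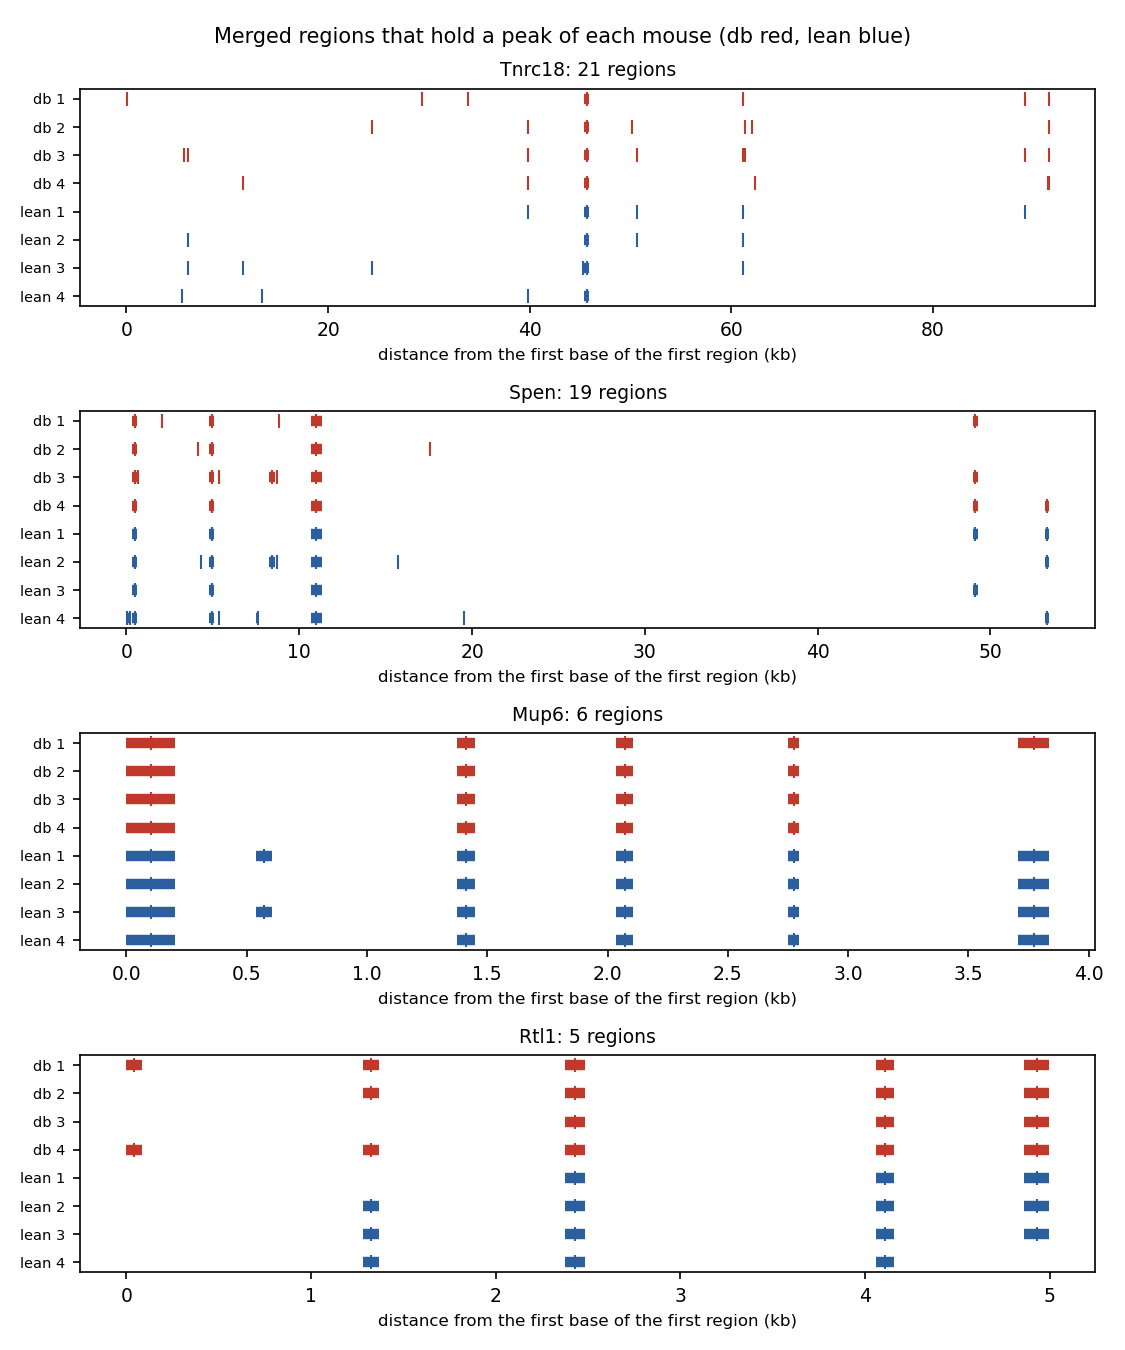
Position of each m6A region (bars) that held a peak of each mouse (rows, db in red above lean in blue) along Tnrc18, Spen, Mup6 and Rtl1, as distance in kb from the first base of the first region in the order of the chromosome. Spen had 3 regions in all 8 mice, Mup6 4, Rtl1 2 and Tnrc18 1.

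Neighbouring regions of a gene lay a median of 2190 bases apart, with quartiles of 370 and 9556 bases over 3752 pairs. Of these pairs, 408 (10.9%) were under 100 bases apart and 913 (24.3%) 10 kb or more. Pairs under 100 bases apart had a mouse in common in 46.8% of cases, against 25.8% of pairs at 10 kb or more, so that some close pairs were separate peaks of 1 mouse and the others were offset peaks of different mice. With gaps of up to 100 bases closed, 572 genes kept 5 or more regions. Regions had a median length of 70 bases, against 66 in genes with fewer regions.

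At the compact end were genes whose regions nearly touched. The median gap was 52.0 bases in Abi3, an adaptor of actin regulation, 53.0 in Gas1, a coreceptor of hedgehog signalling, 70.5 in Arhgap11a, a GTPase-activating protein, 72.0 in Tchh, the hair protein trichohyalin, and 80.5 in Surf6, a nucleolar protein. At the wide end it was 124249 bases in Vps13b, a lipid transfer protein, 91961 in Pcsk5, a proprotein convertase, 86541 in Cadps2, a factor of vesicle release, 83072 in Maml3, a Notch coactivator, and 82190 in Prkce, a protein kinase C. Vps13b and Maml3 had no region with a peak in more than 1 mouse. In the 123 genes whose regions fitted within 10 kb, 36.5% of 736 regions had a peak in at least 2 mice, and in the 135 genes spread over 100 kb or more 21.3% of 975 did. Across 8070 genes the rank correlation of annotated length with the number of regions was 0.179, a description across genes, which are not independent.

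The genotypes did not differ beyond the spread between mice in any measure taken over the 680 genes. The share of a mouse's peaks in these genes was 28.6%, 24.4%, 24.04% and 23.3% in db mice 1 to 4, and 21.4%, 24.5%, 24.5% and 26.8% in lean mice 1 to 4. It averaged 25.1% ± 2.40 in db and 24.3% ± 2.24 in lean mice (SD with n = 4 per genotype, p = 0.686 by exact permutation, two-sided). Since every list also took part in choosing the genes, the share was also computed for each mouse with genes chosen from the other 7 lists, a choice made after the data were seen. It was then 17.5% in db and 18.3% in lean mice, and the values differed by -0.786 percentage points (p = 0.514 by exact permutation).

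A db mouse had peaks in 1354, 688, 867 and 981 of the 4432 regions, and a lean mouse in 931, 721, 598 and 775. The means were 972.5 ± 281 in db and 756.25 ± 138 in lean mice (SD with n = 4 per genotype, p = 0.229 by exact permutation), while the lists themselves held 2831 to 4807 peaks in db and 2475 to 4394 in lean mice. At equal list length, over the 318 genes that then had 5 or more regions, the means were 413.25 in db and 399.25 in lean mice. In a single list, 68, 13, 15 and 14 genes had 5 or more peaks in db mice, against 11, 15, 11 and 27 in lean mice (27.5 ± 27.0 in db and 16 ± 7.57 in lean mice, SD with n = 4 per genotype, p = 0.543 by exact permutation). Db mouse 1 stood apart from the other db mice in this count, and without it the difference, db minus lean, was -2.

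Of the regions with a peak in a mouse, those shared with another mouse made up 40.1%, 58.1%, 57.0% and 41.3% in db mice and 47.4%, 61.4%, 65.1% and 57.5% in lean mice. The means of 49.1% ± 9.76 in db and 57.9% ± 7.63 in lean mice overlapped (SD with n = 4 per genotype, p = 0.2 by exact permutation). The median distance between neighbouring peaks of a gene in one list was 2709, 4407, 3383 and 6229 bases in db mice and 5835, 2408, 2755 and 3158 in lean mice (exact permutation p = 0.543). By fold, peaks in these genes were ranked against the other peaks of the same list. Their median rank lay 0.285 ± 1.48 percentile points above that of other peaks in db and 0.889 ± 1.94 in lean mice (SD with n = 4 per genotype, p = 0.629 by exact permutation between genotypes). Over 8 mice the mean was 0.587 points, above 0 in 6 of 8 mice (exact sign-flip test, p = 0.297). At equal list length it was 2.67 points (exact p = 0.0156), and with a p of at most 1e-10 it was 7.02 points (exact p = 0.0078), each over the genes that then had 5 or more regions. Those genes were chosen again from peaks kept by fold or by score. These p-values therefore do not test fold rank apart from that choice. After adjustment over the family of tests between genotypes every p was 0.686, and the smallest p that 4 against 4 mice can give is 0.0286.

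**Figure D4:**
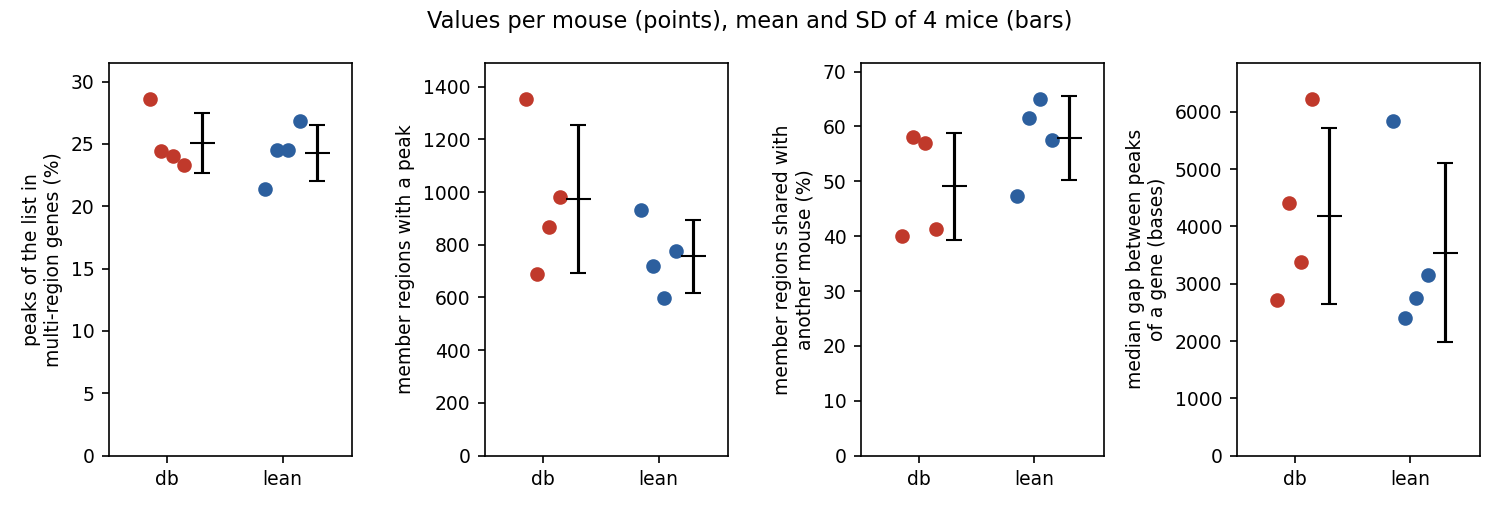
Values per mouse over the genes with 5 or more regions (points, db mice left of lean mice, with bars for the mean and SD, n = 4 each), in panels for the share of peaks (%), the number of regions, the share of regions found in another mouse (%) and the median gap between peaks of a gene (bases). The groups overlap in every panel, and db mouse 1 is highest in regions, with 1354.

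Gene by gene, 14 of the 680 genes had more regions in every db mouse than in any lean mouse, where 0.314% of all 8284 genes did. In the other direction it was 2 of the 680 genes, against 0.145% of all genes. As shares these were 2.06% and 0.294%, while genes with 2 to 4 regions had 0.325% and 0.190%, and none of the 3913 genes with 1 region had more in every db mouse. Some of the separated genes reached 5 regions through the lists of 1 genotype alone. Arid1a, Bahcc1, Cyp4a32, Dll4, Smc3 and Sox4 had no region in lean mice, and Gm8730 none in db mice. The choice of genes thus favoured the shares among the 680, which support no test. A gene with few regions has few values by which mice can differ, and the part of that in these shares was not tested. Each such gene had the smallest p possible, 0.0286 in the exact permutation test, and an adjusted p of 1, so 0 of 8284 genes (0%) passed and 16 of the 680 had an unadjusted p under 0.05. That p can pass the adjustment only where most genes have it, so the test could not single out a few genes. With lists cut to equal length, the counts were 6 genes with more in db and 3 with more in lean mice, among 318 genes with 5 or more regions, and over all genes the shares were 0.189% with more in db and 0.320% with more in lean mice.

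Plec had 15, 7, 6 and 6 regions in db mice, against 1, 4, 4 and 3 in lean mice, a mean difference of 5.5. At equal list length it had 2, 5, 4 and 1 regions in db and 0, 3, 4 and 3 in lean mice, and the genotypes overlapped. Myh14 had 7, 6, 4 and 4 regions in db mice and 1, 1, 0 and 3 in lean mice, and the groups stayed apart at equal length. With gaps of up to 100 bases closed or a p of at most 1e-10 they overlapped (exact permutation p = 0.0571 and 0.0857). Of the chromatin regulators, Tet3 had 4, 4, 3 and 5 in db mice and 2, 2, 1 and 1 in lean mice. Arid1a, a subunit of the BAF remodelling complex, had 6, 1, 1 and 1 in db mice and none in lean mice. At equal length Tet3 and Arid1a overlapped between the genotypes.

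In db livers the fatty acid hydroxylase genes Cyp4a31 and Cyp4a32, neighbours on chromosome 4, both had more regions. Cyp4a32 had 5, 1, 2 and 3 regions in db mice and none in lean mice, and kept its separation at equal length, with 1, 1, 2 and 2 regions in db mice. Cyp4a31 had 7, 3, 4 and 3 in db mice and 1, 2, 2 and 2 in lean mice, and overlapped at equal length. Cyp4a genes are known targets of the receptor Ppara, and their transcript levels were not measured here. Wdfy3, a scaffold of selective autophagy, had 4, 2, 2 and 4 regions in db mice and 1, 0, 1 and 1 in lean mice, and overlapped at equal length. Further genes in this direction were Zc3h18, a nuclear RNA quality factor, Dll4, and the transcription factor gene Olig1, together with Smc3, a cohesin subunit, Sox4, a transcription factor, and Bahcc1, the last 3 chosen after their values were seen. At equal length Zc3h18 and Olig1 overlapped between the genotypes (exact permutation p = 0.629 and 0.114), and Dll4, Smc3, Sox4 and Bahcc1 did not. With a p of at most 1e-10, Dll4 and Smc3 overlapped as well, and Sox4 and Bahcc1 had no peak left. Sox4 had 1, 2, 2 and 1 regions in db mice and none in lean mice, but no region of it or of Bahcc1 had a peak in more than 1 mouse, so that the places differed between mice. In Dll4 only the region at chr2:119332545-119332654 had a peak in more than 1 mouse, and in Arid1a only that at chr4:133681015-133681162.

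More regions in lean mice were found for C1s2, which encodes a complement C1s protease, and for the predicted gene Gm8730, chosen after its values were seen. C1s2 had 5, 1, 3 and 1 regions in db mice and 7, 6, 6 and 6 in lean mice, and db mouse 1 also had 5 at equal length, where it equalled the lowest lean mice. Gm8730 had none in db mice and 2, 5, 3 and 4 regions in lean mice, with the same numbers at equal length, all within 0.996 kb.

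**Figure D5:**
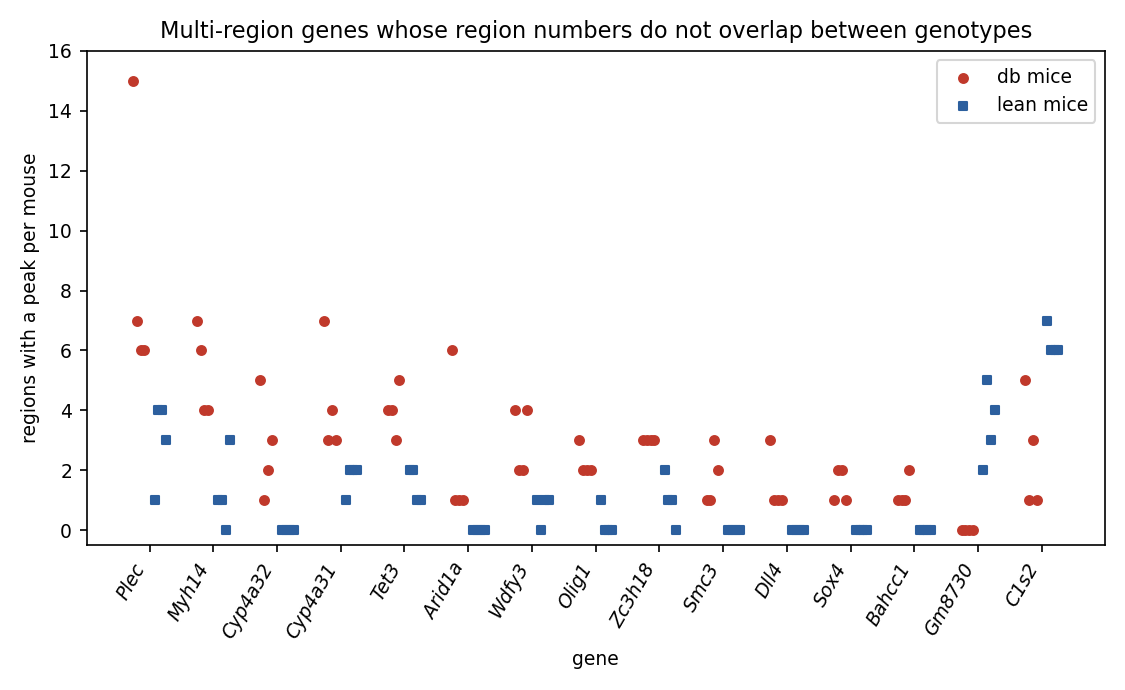
Number of m6A regions with a peak (vertical axis, 1 point per mouse, db circles left of lean squares) for 15 of the 16 genes (horizontal axis) whose values did not overlap between genotypes. The db mice lie above the lean mice in 13 of the genes shown and below them in C1s2 and Gm8730.

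By single region, 4 of 4432 had a peak in all 4 db mice and no lean mouse, 0.0903% against 0.0725% of all 17936 regions. They were the start regions of Tnrc18 and Cyp4a32 shown above and single regions of Cyp4a31 and Olig1. The Tnrc18 region (chr5:142817559-142817640) had folds of 16.5, 20.6, 12.2 and 30.3 in db mice 1 to 4. The Cyp4a32 region (chr4:115600938-115601163) had folds of 49.3, 79.1, 57.4 and 195, that of Cyp4a31 (chr4:115565671-115565715) 19.2, 7.78, 9.37 and 14.7, and that of Olig1 (chr16:91270061-91270384) 39.8, 10.2, 34.1 and 9.41. Tnrc18 had peaks in every lean mouse elsewhere along the gene, and why those mice had none at this start was not tested.

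A peak in all 4 lean mice and no db mouse was found in 8 of the 4432 regions, 0.181% against 0.0948% of all regions. They lay in Acnat2, an acyltransferase of fatty acids, Ahdc1, C1s2, Plk2, a polo-like kinase, Scrib, a polarity protein, the zinc finger gene Tshz1 and, with 2 regions, Gm8730. The C1s2 region (chr6:124635482-124635689) had folds of 6.01, 8.95, 7.17 and 7.28 in lean mice 1 to 4, and the Plk2 region (chr13:110400239-110400499) 12.3, 5.24, 9.41 and 9.29. The Scrib region lay at chr15:76047180-76047307. In Fisher's exact test each of the 12 regions had p = 0.0286, the smallest possible, and an adjusted p of 1, so that 0 of 17936 regions (0%) passed and 12 of the 4432 had an unadjusted p under 0.05. Here too the smallest p can pass only where most regions have it, so a few regions could not be singled out. At equal list length 2 regions of each kind were found, and the share over all regions was not taken there.

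On average over mice, 420 of the 680 genes had more regions in db and 192 fewer, with a median difference of 0.25 regions per mouse, against 3673 and 2619 of the 7604 genes with fewer regions and a median of 0. At equal list length the same 680 genes gave 310 with more in db and 265 with fewer, and a median of 0. Genes with fewer regions then gave 2560 with more and 2581 with fewer. By the same counts, 15 of the 17 transcription factors and coactivators had more in db and 1 fewer, with 10 and 5 at equal length. For the 37 chromatin regulators the counts were 24 and 7, with 21 and 11 at equal length, and for the 15 matrix and adhesion genes 10 and 4, with 11 and 3. A pair of lists that share the Mup genes had fewer in db for most members. The 14 genes of liver secretory and detoxifying families gave 5 more and 9 fewer in db, a median difference of -0.75, with 3 and 9 at equal length, and 18 genes of multicopy families by symbol, largely predicted genes, gave 5 and 12, with 4 and 13 at equal length. The symbol pattern of the multicopy list also took in Gmeb1, which is not a predicted gene. For the 18 large cytoskeletal genes the counts were 8 and 6, and for the 15 zinc finger genes 5 and 6. Of 8 ubiquitin genes 6 had more and 2 fewer, with 4 and 3 at equal length, and for the 12 genes of lipid, glucose and insulin signalling the counts of 8 and 3 became 4 and 4. Without db mouse 1 the counts were 375 and 276 over the 680 genes, and 3738 and 3134 over genes with fewer regions. They were then 22 and 14 for chromatin regulators, and 9 and 6 for matrix and adhesion genes, whose median was 0.25 in place of 0.75. For the liver families they were 3 and 11, with a median of -1.375. All counts of the 680 genes and of the lists, also at equal length, keep the genes chosen on the full lists. There, 284 genes reached 5 regions from db lists alone and 137 from lean lists alone. More regions in db were thus favoured by the choice of genes. No test of a list was made.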

How the data were processed

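Per the file headers, the 8 deposited lists give for each m6A peak its coordinates, gene name, a fold enrichment, a score and a length in bases. Per the submitters' processing notes, reads were trimmed with cutadapt 1.9.3 and aligned with HISAT2 2.0.4, and the build was mm10. Per the file headers, peak names follow MACS. The version of the caller and whether it used the input are not given in the sources used here. As deposited, the fold is a ratio to the background of the authors' own list, and the deposited score is -10 times the log10 of the p-value. The smallest score was 50 and the smallest fold 2.35. A further 8 columns, 1 per list, and the 8 input libraries were not used. No read counts were used and depth is unknown.

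Starts were converted to count from 1 (Python 3.11.15, pandas 2.3.3, scipy 1.17.1). Mice were compared by exact two-sided permutation over 70 assignments, and regions by Fisher's exact test, with Benjamini-Hochberg adjustment over all genes or regions. Functions were tested on simulated data. Nothing says whether the mice came from separate litters, so that p-values measure the spread between these mice.

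The genes, lists and tests were chosen with earlier results of these data known. Genes were named by a rule: the 20 with the most regions, up to 10 with the most regions in 6 or more mice, up to 8 per direction without overlap between genotypes, those with a region in all mice of one genotype only, up to 4 per list, and the 5 with the smallest and the 5 with the largest median gap. Predicted genes and others outside it are said to be chosen after their values were seen, and 1 gene that the rule takes is counted but not reported here. Alternatives were a fold of 4.7, a p of 1e-10, equal lists of 2475 peaks of highest fold, gaps of 100 bases closed, an overlap of 50%, 4 or 6 regions, peaks outside their gene left out, a replicate block, and each mouse left out in turn.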

Additional observations from a re-analysis of the deposited data

Results flagged for a closer look

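In 1 of 14 groups of 4 mice that were looked at, a single mouse lay far from the rest: db mouse 1 had 68 genes with 5 or more peaks in its own list, against 13, 15 and 14 in the other db mice and 11, 15, 11 and 27 in lean mice. Its list was also the longest, with 4807 peaks, and with every list at 2475 peaks the counts were 22, 9, 5 and 4 in db mice and 4, 9, 11 and 18 in lean mice. Chance gives such a gap in about 1 of 20 groups.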

How the results depend on the processing

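Differences are db minus lean. At a p of at most 1e-10, 80 genes had 5 or more regions, the share differed by -0.544 percentage points and spacing by -106.5 bases, Wdfy3 by -0.25 regions, 0 regions and 0 genes among those 80 separated the genotypes (Cyp4a32 and Gm8730, with fewer than 5 regions there, still did), regions per mouse differed by 15, and peaks in multi-region genes ranked 7.02 points higher by fold than other peaks (exact sign-flip p = 0.0078, the smallest possible). At equal list length the values were 318 genes, 14 regions per mouse, -0.5 genes with 5 or more peaks in one list, 4 regions, 9 genes and 2.67 points (exact p = 0.0156). In both settings the genes were chosen again from peaks kept by score or by fold, so fold rank is not tested apart from that choice. With gaps of 100 bases closed the fold rank was -0.466 points and 7 regions separated, and Myh14 and Olig1 overlapped (exact p = 0.0571 each). With 4 or more regions it was -0.423 points, 1255 genes and 25 separating genes, and with 6 or more -0.384 points, 382 genes and 6 regions. In both, 0.314% of all genes had more in every db mouse and 0.145% more in every lean mouse. With genes chosen from the other 7 lists, added after seeing the data, the share differed by -0.786. The causes were not tested.

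Leaving out each mouse gave -0.371 to 1.56 percentage points for the share, 69.6 to 276 for regions per mouse, -2 to 16.3 for genes with 5 or more peaks, -12.3 to -5.87 percentage points for sharing, -13.1 to 1101 bases for spacing, -0.198 to 1.902 points for fold rank, 16 to 23 regions, 17 to 28 genes and 457 to 605 multi-region genes. The lowest numbers of separating and of multi-region genes came without db mouse 1. Without db mouse 4, 23 regions separated the genotypes, and without lean mouse 1, 28 genes did, where fewer mice make separation easier by construction. Over all genes, 0.743% had more in db and 0.248% more in lean mice without lean mouse 1. Without db mouse 2 these shares were 1.01% and 0.200%, and with all mice 0.314% and 0.145%. The share over all regions was not taken in the alternative settings, so their counts of regions have no background. Signs turned for the share without db mouse 1 or lean mouse 1, for genes with 5 or more peaks without db mouse 1, for spacing without db mouse 4 and for fold rank without lean mouse 2. Same-numbered mice did not deviate together (correlations of -0.037 to 0.008). With a replicate block the exact sign-flip p was 1 for the share, 0.25 for regions per mouse and 0.75 for genes with 5 or more peaks and for spacing. It was 0.125 for sharing and 0.375 for fold rank. The smallest p this test can give is 0.125, so it could not change a call. Depth is unknown, so a missing peak could not be told from too few reads.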
